A study of Mus musculus with 12 samples.

Results

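The combined T cell transfer was followed over time in the prostates of TRAMP mice, by comparing day 28 with 1 week after transfer. TRAMP mice carry an oncogene under a probasin promoter, which is active in prostate epithelium, and develop prostate cancer. Total RNA came from CD45+ cells, that is, cells carrying the pan-leukocyte surface protein, which were isolated from the prostate and profiled on Illumina BeadChip arrays, with 1 array per mouse. All mice were C57Bl/6 (TRAMP) and all had received a T cell transfer, so that no untreated TRAMP mouse and no mouse without the transgene is among the arrays. The day 28 group, Tumor+Allo/Y (d28), held 3 mice (samples 10, 11 and 12) that were killed 28 days after the combined transfer. The 1 week group, Tumor+Allo/Y, held 3 mice (samples 7, 8 and 9) given the same transfer and killed at 1 week, when the T cells were infiltrating the prostate acutely. Together these are 6 of the 12 arrays of the series. The other 6 are 3 mice given Tumor transfer and 3 given Allo/Y transfer, all at 1 week. The labels do not spell out what Allo/Y stands for, and they give no age, no chip and no date of preparation. Age and time since transfer cannot be told apart.

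The array held 45281 probes, of which 23054 had a detection p under 0.05 on at least 3 of the 12 arrays. Of these, 19235 had 1 gene symbol and 3819 did not. Where several probes named a gene, the brightest on average was taken, which gave 11971 genes. All values below are log2 normalized signals. Differences are day 28 minus 1 week with their standard error (SE), so that 1 unit is a doubling. A gene is said to have risen or fallen when limma's Benjamini-Hochberg adjusted p over all 11971 genes was under 0.05. Values of single arrays are given in the order samples 10, 11 and 12 at day 28, and samples 7, 8 and 9 at 1 week.

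As background, T cells that enter a tissue recognise antigen through the T cell receptor, whose signal passes through the CD3 chains. CD8+ T cells kill with granzymes and Fas ligand and release interferon gamma, which drives macrophages and other cells to make chemokines and guanylate-binding proteins. T cells that stay in a tissue after the acute phase often carry the adhesion receptor CD103 (Itgae) and the chemokine receptor CXCR6, and T cells that meet antigen over a long time carry inhibitory receptors such as LAG-3 and CTLA-4. Type I interferon induces a separate but overlapping group of antiviral genes.

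At day 28, 4 of 14 measured genes of the T cell receptor complex and T cell identity rose relative to 1 week. Of 26 genes of connective tissue, 4 rose as well. By contrast, 7 of 24 type I interferon genes and 3 of 8 genes on a natural killer (NK) cell list fell. That NK list does not hold Klrc1, a receptor gene of NK cells and CD8+ T cells that rose. Across all genes, 203 of 11971 rose (1.7%) and 42 fell (0.351%), which makes 245 (2.05%) in all. Of these, 125 rose and 22 fell more than 2-fold. The median difference over all genes was -0.0012 on the log2 scale, with 5975 positive and 5996 negative differences. The median was 1.14 among the genes that rose and -1.04 among those that fell. The 3 day 28 arrays and the 3 one-week arrays did not overlap for any of the 245 genes. Among all genes tested, 1541 (12.9%) lay higher on every day 28 array than on any 1 week array, and 1299 (10.9%) lay lower. The number of genes called depended strongly on single mice: it was 5 higher and 0 lower without sample 10, 13 and 1 without sample 11, 256 and 140 without sample 12, 40 and 3 without sample 7, 315 and 157 without sample 8, and 14 and 0 without sample 9 (limma, adjusted p under 0.05). Without sample 10, 1501 genes still had an unadjusted p under 0.05, and without sample 9 it was 1555, against 2427 with all arrays. Of the 52 called genes named below by rule, 2 were still called without sample 10, 6 without sample 11, 44 without sample 12, 13 without sample 7, 46 without sample 8 and 7 without sample 9, and none changed sign. The spread in these tests was estimated over all 12 arrays, the Tumor and Allo/Y groups included. A fit on the 6 arrays compared gave 5 genes higher and 2 lower, and of the 52 named genes it called 5 (limma, adjusted p under 0.05), which were Klrh1, Klrc1, C7, Scgb2b27 and Scgb2b7. No gene of the T cell receptor, NK, interferon or connective tissue lists passed in that fit, in which 2271 genes had an unadjusted p under 0.05.

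**Figure D1:**
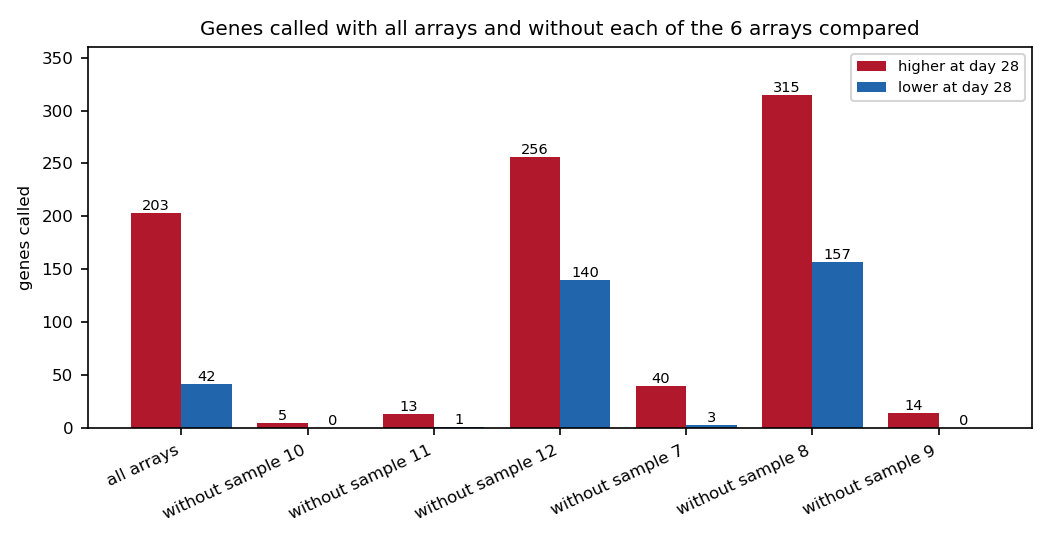
Bars give the number of genes called higher (red) and lower (blue) at day 28 than at 1 week (y axis) with all 12 arrays in the fit and without each of the 6 arrays compared (x axis). Leaving out sample 8 or sample 12 raised both counts, to 315 and 157 without sample 8, whereas leaving out sample 10 left 5 genes higher and 0 lower.

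Sample 8 stood apart among the 1 week mice. Its correlation over all genes was 0.960 with sample 7 and 0.954 with sample 9, whereas samples 7 and 9 correlated at 0.986. The 3 day 28 arrays correlated at 0.981 to 0.986. Epithelial genes averaged 10.35 in sample 8, against 9.28 in sample 7 and 8.91 in sample 9. The 7 neuroendocrine genes measured averaged 7.54, 5.49 and 4.92 in the same order. Genes common to all leukocytes averaged 10.94, 10.67 and 10.91 at day 28, against 11.02, 10.58 and 11.04 at 1 week, so the groups overlapped, and none of its 29 measured genes was called. The CD45 gene Ptprc itself was 8.26, 7.78 and 8.42 at day 28, against 7.79, 7.36 and 8.24 at 1 week. Epithelial transcripts were present on all 6 arrays despite the CD45 label: the keratin gene Krt8 was 12.43, 13.33 and 12.61 at day 28, against 11.74, 13.32 and 11.79 at 1 week, while probasin (Pbsn) was above background on none of them. In RNA from a mixed cell isolate, fewer cells of a type and less RNA per cell cannot be told apart.

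Genes of the T cell receptor complex and T cell identity included 4 that rose, which were Cd3e, Cd3g, Cd247 and Cd28. Of the 14 measured genes of the T cell receptor complex and T cell identity, 4 rose and 0 fell, against 1.7% and 0.351% of all genes. All 14 differences were positive, with a median of 1.31, and 13 of the 14 had no overlap between groups, against 12.9% of all genes. Cd3e, a CD3 chain that carries the receptor signal, was 13.29, 13.20 and 12.52 at day 28, against 11.22, 11.65 and 10.14 at 1 week. Every day 28 array was above every 1 week array, and the difference was 2.00 ± 0.40 (limma adjusted p = 0.0398). A second probe of Cd3e differed by 2.12. Cd3g, another CD3 chain, was 14.07, 13.85 and 13.28 at day 28, against 11.65, 12.61 and 10.98 at 1 week, a difference of 1.99 ± 0.43 (limma adjusted p = 0.0475). Sample 9 was the lowest 1 week array for both genes. The signalling chain Cd247 (CD3 zeta) rose by 1.23 ± 0.24 and the costimulatory receptor Cd28 by 1.95 ± 0.41 (limma adjusted p = 0.0392 and 0.0436). The members that were not called included Cd3d at 1.41, Cd2 at 1.36, the adaptor Lat at 1.24, the kinase Zap70 at 1.20 and the transcription factor Bcl11b at 1.60. The mean over the list was 11.57, 11.22 and 10.88 at day 28, against 10.04, 10.35 and 9.19 at 1 week. None of the 14 was called without samples 7, 9, 10 or 11 in turn, whereas 7 were without sample 8 and 6 without sample 12. With all arrays set to an equal mean of the leukocyte genes, none was called (limma), although the median was 1.35.

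The CD8 beta chain rose and the CD4 signal did not pass the test. Cd8b1, a chain of the CD8 coreceptor of cytotoxic T cells, was 14.21, 14.09 and 13.56 at day 28, against 12.06, 12.16 and 11.04 at 1 week, with a difference of 2.20 ± 0.32 (limma adjusted p = 0.0197). No array overlapped. A second Cd8b1 probe differed by 2.93 and the other one by 0.01. Cd4, the coreceptor of helper T cells, was 6.43, 5.99 and 5.84 at day 28, against 6.02, 5.87 and 5.43 at 1 week, so the groups overlapped (0.31 ± 0.23, limma adjusted p = 0.469). The only Cd8a probes lay under the detection filter.

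Some genes of killer cells rose and others did not pass the test. Of 13 measured cytotoxic genes, 4 rose and 0 fell, against 1.7% and 0.351% of all genes, and the median was 1.10. The 4 were Gzmk, Fasl, Cst7 and Klrc1, the last an inhibitory receptor gene given below. Gzmk, which encodes granzyme K, was 9.62, 9.72 and 9.46 at day 28, against 8.24, 8.39 and 7.27 at 1 week (1.63 ± 0.26, limma adjusted p = 0.0245). Fasl, the ligand of the death receptor Fas, was 11.84, 11.33 and 10.78 at day 28, against 9.46, 9.96 and 9.12 at 1 week (1.80 ± 0.39, limma adjusted p = 0.0475). Both were higher on every day 28 array. Cst7, which encodes the protease inhibitor cystatin F, rose by 1.27 ± 0.21 (limma adjusted p = 0.0245). The pore-forming protein perforin (Prf1) was 12.49, 12.05 and 11.53 at day 28, against 11.68, 11.74 and 11.27 at 1 week, with overlapping groups and a difference of 0.46 ± 0.27 (limma adjusted p = 0.358). Interferon gamma itself (Ifng) was 12.56, 12.22 and 10.99 at day 28, against 10.83, 11.02 and 10.70 at 1 week, so that day 28 sample 12 lay within the 1 week values (1.07 ± 0.33, limma adjusted p = 0.114). Without sample 12 the Ifng difference was 1.54 and passed the test (limma adjusted p = 0.00978). With other arrays left out its lowest difference was 0.75 and its highest adjusted p was 0.365 (limma). Granule genes Gzmm and Srgn had differences of -0.54 and 0.01 and were not called. Gzmb, which encodes granzyme B, lay under the detection filter and was not tested. The number of cytotoxic genes called was 0 without sample 10, 1 without sample 11, 6 without sample 12, 2 without sample 7, 5 without sample 8 and 2 without sample 9.

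Among 9 inhibitory receptors and related genes, 2 rose and 0 fell, against 1.7% and 0.351% of all genes, and the median was 0.91. Lag3, a CD4-like receptor that binds MHC class II and dampens T cells, was 10.21, 9.72 and 9.56 at day 28, against 7.82, 8.32 and 7.21 at 1 week (2.04 ± 0.25, limma adjusted p = 0.00889). Ctla4, which competes with Cd28 for B7 ligands, was 12.77, 12.15 and 12.16 at day 28, against 10.57, 10.51 and 9.61 at 1 week (2.13 ± 0.33, limma adjusted p = 0.0245). The groups did not overlap for either gene. Tigit differed by 1.61 and the transcription factor gene Tox by 1.57, and neither was called with all arrays. Pdcd1, which encodes PD-1, was 6.69, 6.29 and 6.08 at day 28, against 6.25, 5.17 and 4.92 at 1 week, with sample 7 inside the day 28 values (0.91 ± 0.30, limma adjusted p = 0.139). Havcr2, which encodes TIM-3, was 10.96, 10.44 and 10.54 at day 28, against 10.15, 9.62 and 10.23 at 1 week (0.65 ± 0.22, limma adjusted p = 0.144). Of these genes, 0 were called without sample 10, 1 without sample 11 or without sample 9, 3 without sample 12 or without sample 7, and 4 without sample 8. Among 12 costimulatory receptors, 3 rose, against 1.7% of all genes, and the median was 0.80. The 3 were Cd28, already counted in the T cell list, Cd27 by 1.85 ± 0.41 and Cd96 by 1.72 ± 0.29 (limma adjusted p for the last pair = 0.048 and 0.0265). A second Cd96 probe differed by 0.99. Costimulatory calls were 3 without sample 8 or sample 12 and 0 without any other sample.

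Of 12 genes linked to memory and residency of T cells, 3 rose and 0 fell, against 1.7% and 0.351% of all genes. All 12 differences were positive, with a median of 0.58. Il7r, the receptor chain for the survival cytokine interleukin 7, was 11.72, 10.97 and 10.33 at day 28, against 9.19, 8.95 and 8.11 at 1 week (2.26 ± 0.37, limma adjusted p = 0.0245). Cxcr6 was 9.07, 8.88 and 8.54 at day 28, against 7.44, 7.13 and 5.73 at 1 week (2.07 ± 0.39, limma adjusted p = 0.0371). For both genes sample 9 was the lowest, and no array overlapped. Tbx21, which encodes the transcription factor T-bet, rose by 1.54 ± 0.33 (limma adjusted p = 0.0469). Itgae, the CD103 chain, differed by 2.34 and missed the threshold in the test over genes (limma adjusted p = 0.0515). When every probe was tested on its own, 5 of the 6 Itgae probes were called, with differences of 2.06 to 2.34. Ccr7, a homing receptor for lymph nodes, differed by 0.67 and was not called. Calls in this list were 0 without samples 9, 10 or 11 in turn, 5 without sample 12, 2 without sample 7 and 3 without sample 8. Of 7 genes of regulatory T cells, Ctla4, already given, was the only one that rose, against 1.7% of all genes. Foxp3, their defining transcription factor, was 9.71, 9.62 and 9.66 at day 28, against 10.11, 9.62 and 9.91 at 1 week on the brightest probe, with overlapping groups (-0.21 ± 0.22, limma adjusted p = 0.628). Its other 3 probes differed by 0.73 to 0.79 and were not called either. The median of the regulatory list was -0.01 and turned positive with other background corrections, 0.54 without any.

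**Figure D2:**
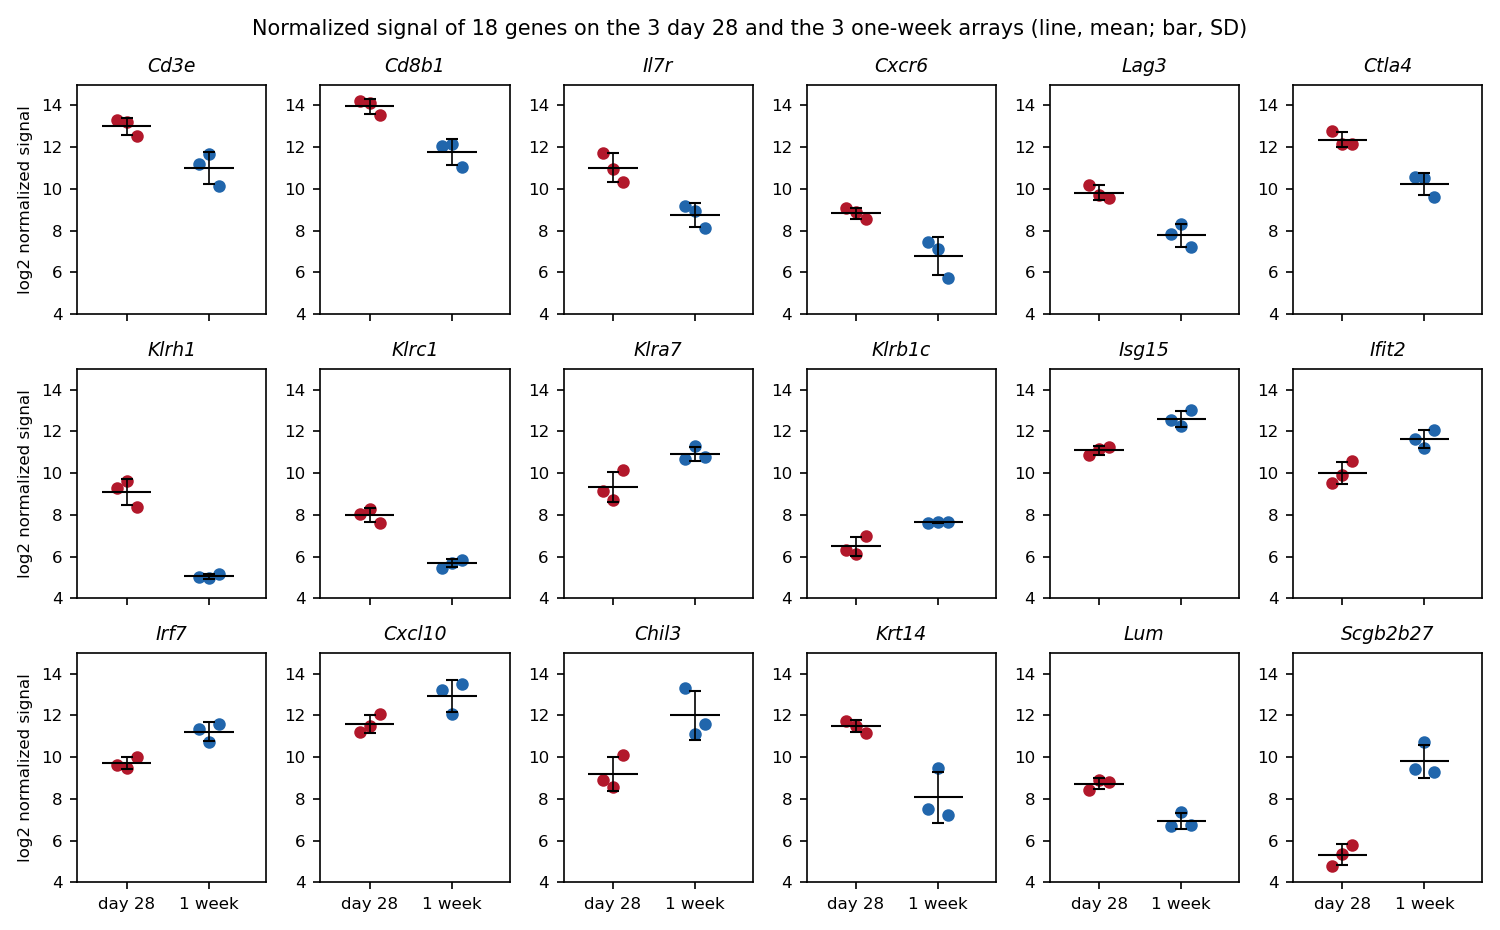
Each panel gives the log2 normalized signal (y axis) of 1 gene on the 3 day 28 arrays (red) and the 3 one-week arrays (blue), with the mean as a line and the SD as a bar. T cell genes of the top row lie higher on every day 28 array, whereas Klra7, Klrb1c, Isg15, Ifit2 and Irf7 lie lower, and Scgb2b27 is 5.33 at day 28, against 9.80 at 1 week on average.

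Receptors of the killer cell lectin-like family moved in both directions. These receptors are found on NK cells and some T cells, are encoded largely in the NK gene complex, and recognise MHC class I or related ligands with activating or inhibitory effect. The family was chosen after its values were seen. Of its 23 measured members, 3 rose and 3 fell, against 1.7% and 0.351% of all genes. The other 17 were not called, and the median of the family was -0.63. The counts were 4 higher and 8 lower without sample 12, 2 and 1 without sample 8, 1 and 0 without sample 10, and 2 and 0 without samples 7, 9 or 11 in turn. They were also 2 and 0 with only the 6 arrays compared and with equal leukocyte means. Klrh1 had the largest rise of all named genes and was 9.29, 9.62 and 8.39 at day 28, against 5.01, 4.97 and 5.16 at 1 week. Every 1 week array was near background, with a detection p under 0.05 on 1 of the 3, and every day 28 array was above it. The difference was 4.05 ± 0.31 (limma adjusted p = 0.000969), and since 2 of the 3 one-week arrays were not above background its size as a fold is uncertain. It was called under all 21 alternative settings, and a second Klrh1 probe differed by 3.38. Klrc1, which encodes NKG2A, an inhibitory receptor of NK cells and CD8+ T cells, was 8.04, 8.27 and 7.63 at day 28, against 5.46, 5.70 and 5.85 at 1 week (2.31 ± 0.28, limma adjusted p = 0.00889). Klra17 also rose, by 1.69. Klrd1 (CD94), the partner chain of NKG2A, differed by 1.10 and was not called.

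The members that fell were Klra7, Klrb1c and Klrb1f. Klra7, which encodes the receptor Ly49G, was 9.13, 8.72 and 10.15 at day 28, against 10.65, 11.29 and 10.76 at 1 week (-1.57 ± 0.34, limma adjusted p = 0.0469). Klrb1c, the NK1.1 antigen of C57BL/6 mice, was 6.32, 6.14 and 6.98 at day 28, against 7.63, 7.66 and 7.63 at 1 week (-1.16 ± 0.26, limma adjusted p = 0.049). Klrb1f, a related receptor, fell by 1.32 ± 0.27 on the log2 scale (limma adjusted p = 0.0398). All 3 were lower on every day 28 array, and sample 12 was the nearest to the 1 week level for each. In the NK list as a whole, 3 of 8 measured genes fell and 0 rose, against 0.351% and 1.7% of all genes, and the median was -0.97. These 3 are the same genes, so this count is not separate from that of the family. Klrc1 and Klrd1, at 2.31 and 1.10, are on the cytotoxic list and not on the NK list. The activating receptor Klrk1 (NKG2D) differed by -0.25 and was not called. The NK list had 4 falling genes without sample 12, 1 without sample 8 and 0 without any other array. The Ly49 genes are close copies of each other, and a probe of 1 can bind the RNA of another, so their single values are uncertain.

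**Figure D3:**
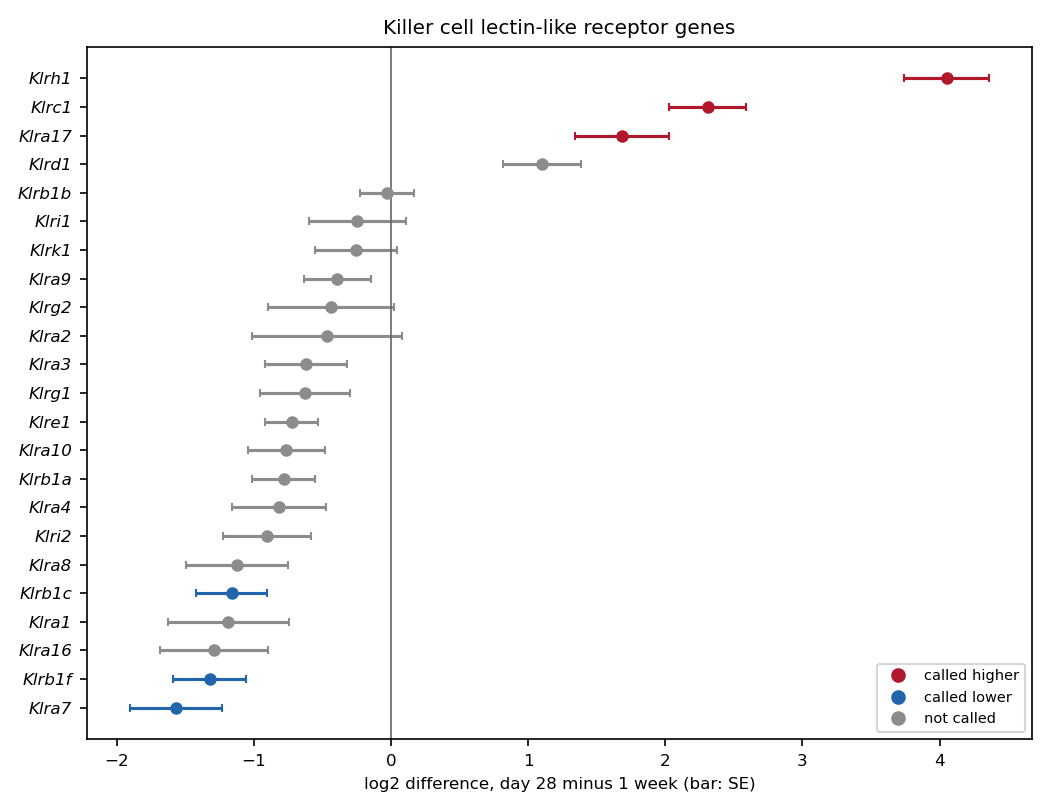
Points give the log2 difference, day 28 minus 1 week (x axis), of the 23 measured killer cell lectin-like receptor genes, with the SE as a bar. Klrh1, Klrc1 and Klra17 were called higher (red) and Klrb1c, Klrb1f and Klra7 lower (blue), with most of the other members to the left of 0.

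Genes of the type I interferon response included 7 that fell. Of 24 measured, 7 fell and 0 rose, against 0.351% and 1.7% of all genes. All 24 differences were negative, with a median of -1.01, and 21 of 24 had no overlap between groups, against 10.9% of all genes. Isg15, a ubiquitin-like protein attached to others under interferon, was 10.85, 11.15 and 11.25 at day 28, against 12.56, 12.23 and 13.001 at 1 week (-1.52 ± 0.22, limma adjusted p = 0.0197). Ifit2, a binder of foreign RNA, was 9.52, 9.89 and 10.55 at day 28, against 11.65, 11.21 and 12.07 at 1 week (-1.65 ± 0.32, limma adjusted p = 0.0398). The groups were apart for both, with sample 9 the highest. Irf7, the transcription factor that amplifies the interferon response, was 9.63, 9.49 and 10.02 at day 28, against 11.33, 10.71 and 11.59 at 1 week (-1.50 ± 0.27, limma adjusted p = 0.0312). Rsad2, which encodes viperin, was 11.18, 12.13 and 12.35 at day 28, against 13.27, 13.13 and 13.43 at 1 week (-1.39 ± 0.27, limma adjusted p = 0.0398). Its lowest value was in sample 10. Cmpk2, the neighbour of Rsad2 in the genome, fell by 1.43 ± 0.22 on the log2 scale, the double-stranded RNA sensor kinase Eif2ak2 (PKR) by 0.91 ± 0.16 and the ISG15 protease Usp18 by 1.02 (limma adjusted p = 0.0245, 0.028 and 0.0414). Outside the list, Oas1g, of the oligoadenylate synthetase family, fell by 1.47 ± 0.29 (limma adjusted p = 0.0398). Rnf213, an interferon-induced ubiquitin ligase, fell by 1.22 ± 0.20 (limma adjusted p = 0.0245). The members that were not called included Oas3 at -2.02, Mx1 at -1.08, Ifit3 at -1.01 and Stat2 at -0.89. The list mean was 9.21, 9.40 and 9.56 at day 28, against 10.55, 10.06 and 10.73 at 1 week. The number of list members called lower was 14 without sample 8, 8 without sample 12, 1 without sample 7, and 0 without samples 9, 10 or 11 in turn. It was 5 with equal leukocyte means.

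Genes that answer to interferon often carry an interferon-stimulated response element, a short promoter sequence bound by transcription factors of the response. A simple pattern, GAAA, then NN (any bases), then GAAA, was searched on both strands of 300 bases around each RefSeq gene start (GRCm38.p6, 250 bases before to 50 after). It was found in 6 of the 38 falling genes with a promoter in the table (15.8%), in 5 of 158 rising genes (3.16%) and in 376 of 9654 genes tested (3.89%). Among the interferon list it was in 10 of 17 (58.8%), a list that was drawn up from known interferon targets. The 6 falling genes were Isg15, Oas1g, Rsad2, Ifit1bl1, Eif2ak2 and Tdrd7. Ifit2, Irf7 and Cmpk2 were not among them. Isg15, Rsad2 and Eif2ak2 are also on the interferon list, so these shares are not independent. The sequences below are those of 3 of the 6 falling genes, 5′ to 3′ on the strand of the gene, with the pattern in capitals. They are Isg15 at chr4:156200862-156200921, Oas1g at chr5:120887597-120887656 and Rsad2 at chr12:26456538-26456597, all of the minus strand. In Isg15, 3 matches overlap and lie between 78 and 57 bases before the start. In Rsad2 the pattern reads on the other strand.
Isg15: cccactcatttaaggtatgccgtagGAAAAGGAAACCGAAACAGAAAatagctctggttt
Oas1g: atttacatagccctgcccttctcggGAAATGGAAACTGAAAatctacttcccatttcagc
Rsad2: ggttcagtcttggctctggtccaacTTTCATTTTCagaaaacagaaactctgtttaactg

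No interferon gamma response gene passed the test with all 6 mice. Of 22 measured, 0 fell and 0 rose (limma, adjusted p under 0.05), and 11 were lower with no overlap, against 10.9% of all genes. All 22 differences were negative, with a median of -1.13. The list mean was 10.09, 9.96 and 10.88 at day 28, against 11.76, 10.76 and 11.93 at 1 week, so that sample 12 lay above sample 8. Cxcl10, a chemokine for CXCR3+ T cells, was 11.19, 11.50 and 12.06 at day 28, against 13.23, 12.08 and 13.53 at 1 week (-1.36 ± 0.41, limma adjusted p = 0.108). Cxcl9, of the same chemokine group, was 13.27, 13.23 and 14.27 at day 28, against 14.59, 13.72 and 14.64 at 1 week, with sample 12 above sample 8 (-0.73 ± 0.38, limma adjusted p = 0.313). Gbp2b, a guanylate-binding protein, was 10.28, 9.98 and 12.15 at day 28, against 12.57, 11.80 and 12.93 at 1 week (-1.63 ± 0.65, limma adjusted p = 0.2). Without sample 8, 5 of the 22 were called lower, among them Cxcl10 at -1.80 (limma adjusted p = 0.0391), and 1 was without sample 12. With another array left out the adjusted p of Cxcl10 reached 0.341 (limma). An unadjusted p under 0.05 was reached by 17 of the 22 (limma), against 2427 of all 11971 genes.

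Genes of macrophages, monocytes and neutrophils were mostly lower in level at day 28, with 1 call. Of 15 monocyte and macrophage genes, 0 were called (limma, adjusted p under 0.05), with a median of -0.76. An unadjusted p under 0.05 was reached by 7 of the 15 (limma), against 2427 of all 11971 genes. Adgre1, the macrophage marker F4/80, was 10.87, 10.95 and 11.14 at day 28, against 10.75, 11.00 and 11.00 at 1 week, with a difference of 0.07 ± 0.24. Siglec1, Lyve1 and Timd4, genes of resident macrophages, differed by -1.89, -1.67 and -1.73 (limma adjusted p = 0.0697, 0.0757 and 0.0571). Chil3, a chitinase-like protein of alternatively activated macrophages, was 8.90, 8.57 and 10.13 at day 28, against 13.33, 11.12 and 11.57 at 1 week (-2.81 ± 0.68, limma adjusted p = 0.0622). Every day 28 array lay below every 1 week array, and Chil3 was called without sample 8 at -3.25 (limma adjusted p = 0.0451). With another array left out its adjusted p reached 0.221 (limma). Arg1, arginase of the same macrophages, ranged widely: it was 6.04, 6.66 and 9.82 at day 28, against 9.75, 8.32 and 11.31 at 1 week (-2.29 ± 1.27, limma adjusted p = 0.336). Of 9 neutrophil genes, 1 fell, against 0.351% of all genes. It was Ngp (neutrophilic granule protein), and the others, at a median for the list of -0.95, were not called. Ngp was above background on 0 of 3 day 28 arrays and on 3 of 3 at 1 week, at least 1.76-fold lower at day 28 (limma adjusted p = 0.0398). It was called under 8 of 20 alternative settings, and with 1 array left out its adjusted p reached 0.167 (limma). Without sample 12, 3 macrophage and 2 neutrophil genes were called lower.

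Toll-like receptors and their adaptors, which sense microbial and damage signals, had all 18 differences below 0, with a median of -0.71. Of these, 1 fell, against 0.351% of all genes: Tirap, an adaptor of TLR2 and TLR4. It was 7.68, 8.05 and 8.05 at day 28, against 8.88, 8.50 and 8.92 at 1 week (-0.84 ± 0.15, limma adjusted p = 0.0312). The others ranged from -1.33 to -0.22. Without sample 8, 3 of the 18 were called. With 1 array left out at a time, the adjusted p of Tirap went from 0.0213 to 0.147 (limma). Among 30 cytokines, 1 fell, against 0.351% of all genes: Il15, a survival factor for NK and memory CD8+ T cells. It was 9.55, 9.93 and 10.12 at day 28, against 10.85, 10.50 and 11.19 at 1 week (-0.98 ± 0.19, limma adjusted p = 0.0398). Its groups did not overlap, and the median of the cytokine list was -0.18.

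Antigen presentation genes were split. Of 16 MHC class II genes, 2 rose and 0 fell, against 1.7% and 0.351% of all genes, and the median was -0.29. Both encode the DO heterodimer, which tunes peptide loading by the DM protein and is made mainly in B cells. H2-Ob was 9.72, 8.96 and 9.90 at day 28, against 8.31, 7.74 and 8.53 at 1 week (1.33 ± 0.26, limma adjusted p = 0.0398). H2-Oa was 10.25, 9.86 and 10.51 at day 28, against 8.98, 9.00 and 9.43 at 1 week (1.07 ± 0.22, limma adjusted p = 0.0429). The classical chain H2-Aa was 13.09, 13.27 and 13.29 at day 28, against 12.70, 12.86 and 13.04 at 1 week, and the transactivator Ciita was 9.69, 9.40 and 9.76 at day 28, against 10.16, 9.49 and 10.99 at 1 week. Neither was called. None of 23 MHC class I genes was called (limma), with a median of -0.26. An unadjusted p under 0.05 was reached by 6 of the 23 (limma), a share near that of all genes (2427 of 11971). Of 13 B cell and plasma cell genes 0 were called, 8 had an unadjusted p under 0.05 (limma, against 2427 of 11971 genes), and the median was 1.00. Their mean was 8.40, 7.59 and 8.68 at day 28, against 7.79, 6.79 and 7.45 at 1 week, so sample 11 lay below sample 7. The B cell marker Ms4a1 (CD20) was 5.30, 4.92 and 5.78 at day 28, against 5.27, 4.70 and 5.15 at 1 week, above background on 2 of 3 arrays at day 28 and 1 of 3 at 1 week.

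Among 30 chemokines, only Cxcl14 rose, against 1.7% of all genes, and the median of the list was 0.05. Cxcl14, made by epithelium and fibroblasts, was 8.75, 8.42 and 8.24 at day 28, against 6.86, 7.11 and 6.89 at 1 week (1.52 ± 0.28, limma adjusted p = 0.0323). Of 13 chemokine receptors, Cxcr6 was the only one called, against 1.7% of all genes that rose. Ccr6 and Ccr8 differed by 1.37 and 1.35. In this list 12 differences were positive, and the lowest was -1.97. Of 11 complement genes 1 rose, against 1.7% of all genes: Serping1, the C1 inhibitor, by 1.06 ± 0.21 (limma adjusted p = 0.0392). The terminal complement component C7, outside that list, was 7.20, 7.43 and 7.26 at day 28, against 4.76, 5.47 and 5.26 at 1 week (2.13 ± 0.18, limma adjusted p = 0.000982). It was above background on 3 of 3 day 28 arrays and on 2 of 3 at 1 week, and it was called under all 21 alternative settings. A second, dimmer C7 probe differed by 0.64, and the mean of both probes gave 1.39. Without background correction the C7 difference was 1.29. The second Cxcl14 probe differed by 0.91.

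**Figure D4:**
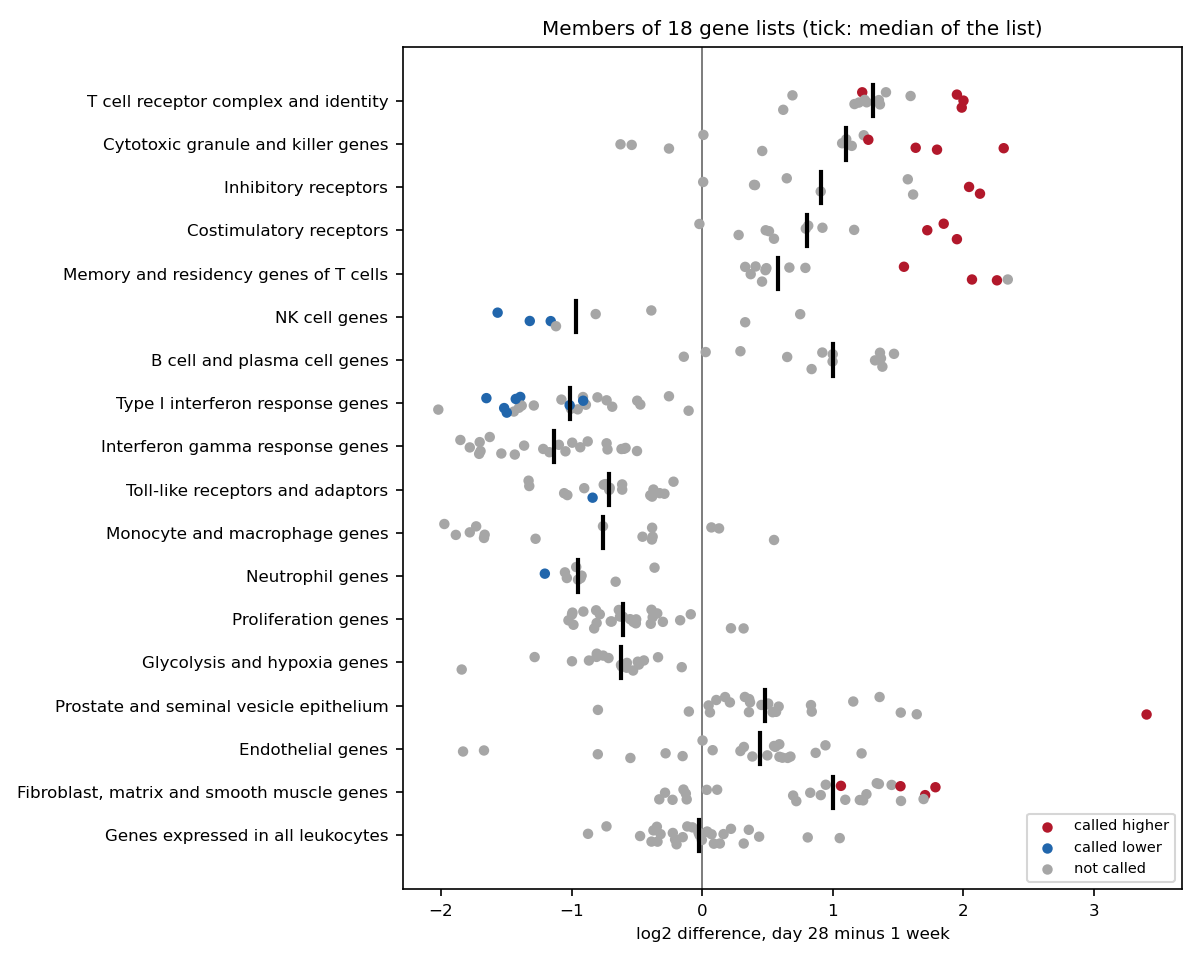
Each point is 1 gene of 18 lists, placed by its log2 difference, day 28 minus 1 week (x axis), and coloured by whether it was called higher (red), lower (blue) or not called (grey), with the list median as a tick. The T cell receptor, killer, inhibitory, costimulatory, memory and fibroblast lists have medians above 0, up to 1.31, and the interferon, NK and myeloid lists have medians below 0, down to -1.13.

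Proliferation and glycolysis genes were lower in level without any call among all 6 mice. Of 27 proliferation genes 25 had negative differences, with a median of -0.61, and 0 were called. An unadjusted p under 0.05 was reached by 12 of the 27 (limma), against 2427 of all 11971 genes. The mean over the 27 was 7.86, 8.00 and 8.80 at day 28, against 8.66, 9.11 and 8.56 at 1 week, so sample 12 lay above samples 7 and 9. Without sample 12, 14 of the 27 were called lower. Cenpm, a centromere protein outside the list, fell and was 5.78, 5.69 and 6.52 at day 28, against 6.87, 7.35 and 7.45 at 1 week (-1.23 ± 0.23, limma adjusted p = 0.0372). Of 18 glycolysis and hypoxia genes all had negative differences, with a median of -0.62, and 0 were called. An unadjusted p under 0.05 was reached by 8 of the 18 (limma), against the same 2427 of 11971. Of 51 measured histone genes, whose messages are mostly made when DNA is copied, 9 rose and 0 fell, with a median of 0.71. Over all genes 1.7% rose and 0.351% fell. The histone group was chosen after its values were seen. Its differences ranged from -0.89 to 1.44. The genes that rose encode histones H1, H2B, H3 and H4. Most of the H2A genes had negative differences, and none of them was called. H4c11 was 10.55, 10.45 and 9.65 at day 28, against 8.97, 9.21 and 8.89 at 1 week (1.19 ± 0.24, limma adjusted p = 0.0398). H4c6 was 9.90, 9.80 and 9.59 at day 28, against 8.65, 9.00 and 8.73 at 1 week (0.97 ± 0.15, limma adjusted p = 0.0245). The number of histone genes called was 18 higher and 1 lower without sample 12, 14 higher without sample 8 and 0 without any other array. Many histone genes are nearly identical in sequence, so the reading of 1 gene is uncertain.

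Among connective tissue genes 4 rose and 22 were not called, whereas 1.7% of all genes rose. Of 26 measured genes of fibroblasts, matrix and smooth muscle, 20 had positive and 6 negative differences, and 17 were higher with no overlap, against 12.9% of all genes, with a median of 1.00. Lum, a matrix proteoglycan, was 8.44, 8.93 and 8.83 at day 28, against 6.72, 7.39 and 6.73 at 1 week (1.79 ± 0.33, limma adjusted p = 0.0364). Pdgfra, the growth factor receptor that marks fibroblasts, was 8.50, 9.08 and 8.27 at day 28, against 6.65, 7.50 and 6.57 at 1 week (1.71 ± 0.29, limma adjusted p = 0.0265), although a second, dim Pdgfra probe differed by -0.09. For both genes sample 8 was the highest 1 week array. The proteoglycan gene Bgn rose by 1.52 ± 0.31 and the collagen gene Col5a1 by 1.06 ± 0.21 (limma adjusted p = 0.0398 and 0.0393). Col1a1, the main fibrillar collagen, was 6.91, 6.52 and 6.35 at day 28, against 5.64, 5.85 and 5.80 at 1 week and missed the threshold (0.83 ± 0.19, limma adjusted p = 0.0532). The smooth muscle genes Acta2, Tagln and Des were not called and differed by 0.11, -0.28 and -0.12. The list mean was 8.87, 9.16 and 8.86 at day 28, against 7.84, 8.72 and 7.88 at 1 week. Of the list, 10 genes were called without sample 8, 4 without sample 12 and 0 without any other array. Endothelial genes had a median of 0.44 over 22 measured, with 0 called. An unadjusted p under 0.05 was reached by 7 of the 22 (limma), against 2427 of all 11971 genes. Pecam1 was 7.71, 7.02 and 7.68 at day 28, against 7.74, 7.00 and 7.67 at 1 week.

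Of 24 measured epithelial genes (prostate and seminal vesicle), only Krt14 rose, against 1.7% of all genes, and the median of the list was 0.48. Krt14, a keratin of basal cells, was 11.75, 11.52 and 11.17 at day 28, against 7.51, 9.48 and 7.23 at 1 week (3.40 ± 0.67, limma adjusted p = 0.0398). Krt17, another basal keratin, was 11.14, 10.75 and 10.20 at day 28, against 7.72, 8.88 and 7.28 at 1 week (2.73 ± 0.53, limma adjusted p = 0.0377). Sample 8 was nearest to day 28 for both, and without it the differences were 4.10 and 3.19. Of 19 keratin genes measured, 2 rose and 0 fell, against 1.7% and 0.351% of all genes. The keratin family was chosen after its values were seen. Its calls were 2 without sample 8 or sample 12, and 0 without samples 7, 9, 10 or 11 in turn. The basal factor Trp63 differed by 1.36 and the keratin gene Krt5 by 0.83, without a call, and the secretory enzyme Tgm4 was 11.83, 11.62 and 11.28 at day 28, against 9.62, 11.61 and 10.04 at 1 week (1.16 ± 0.82, limma adjusted p = 0.457). Scgb2b27 and Scgb2b7, genes of androgen-binding protein subunits, had the largest falls among the named genes. Scgb2b27 was 4.80, 5.37 and 5.81 at day 28, against 9.41, 10.71 and 9.27 at 1 week (-4.47 ± 0.72, limma adjusted p = 0.0245). The probe was above background on 2 of 3 day 28 arrays and near it there, so the size of the fall as a fold is uncertain. Other settings gave differences of -5.11 to -3.40. A second Scgb2b27 probe differed by -3.50. Scgb2b7 was 5.22, 4.48 and 4.46 at day 28, against 7.89, 8.44 and 8.18 at 1 week (-3.45 ± 0.70, limma adjusted p = 0.0401), above background on 1 of 3 day 28 arrays. These genes are members of a family of close copies, so the reading of 1 member is uncertain. Of 3 secretoglobin genes measured, 2 fell and 0 rose, against 0.351% and 1.7% of all genes. The secretoglobin family, too, was chosen after its values were seen. Its calls were 1 without sample 8 or sample 12, and 0 without samples 7, 9, 10 or 11 in turn. In the separate list of 14 Pate, defensin, Wfdc and secretoglobin genes, 10 differences were positive and 4 negative, with a median of 0.69 and 0 called. The epithelial list mean was 9.74, 10.74 and 9.94 at day 28, against 9.28, 10.35 and 8.91 at 1 week, and the groups overlapped. The part of epithelial RNA in the differences was not tested. In a fit with the epithelial mean as a covariate 399 genes rose and 168 fell, and all 245 genes called without it were called again. That mean includes Krt14, overlapped between the groups compared and was highest in the Allo/Y arrays (11.12 to 12.04). The fit therefore cannot measure the epithelial part.

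Other genes named by size include several of known cell types. Cartpt, a neuropeptide precursor, was 8.03, 9.10 and 7.65 at day 28, against 5.87, 4.38 and 5.19 at 1 week (3.11 ± 0.52, limma adjusted p = 0.0265). Esm1, an endothelial proteoglycan, was 8.74, 8.33 and 8.67 at day 28, against 7.07, 6.59 and 4.90 at 1 week (2.40 ± 0.49, limma adjusted p = 0.0401). Both were above background on all 3 day 28 arrays and on 2 of 3 at 1 week. The cyclic AMP phosphodiesterase Pde4d rose by 2.20 ± 0.34, although a second probe differed by -0.15. The glycosyltransferase B4galnt4 rose by 2.14 ± 0.29 and the calcium-binding protein calretinin (Calb2) by 2.07 ± 0.42 (limma adjusted p = 0.0138 and 0.0398). The other B4galnt4 probes differed by 1.35 and 1.97. Among falls, the adhesion protein gene Lpp was 7.45, 7.74 and 6.84 at day 28, against 8.70, 8.58 and 8.93 at 1 week (-1.39 ± 0.23, limma adjusted p = 0.0245), and Amigo3, which encodes a membrane adhesion protein, fell by 1.37 ± 0.24 (limma adjusted p = 0.0291). For Lpp, 4 other probes differed by -0.61 to -0.22 and were not called. For 9 of the genes that rose, no probe was above background on any 1 week array, so that only bounds can be given: they reached at least 2.41-fold for Cldnd2 and 2.37-fold for Wnt10b.

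Fixed genes of interest outside these groups gave no call. The inducible nitric oxide synthase Nos2 was 4.59, 4.65 and 5.96 at day 28, against 7.00, 4.75 and 6.27 at 1 week, above background on 1 of 3 day 28 arrays and 2 of 3 at 1 week. Tnf was 10.08, 10.37 and 10.14 at day 28, against 10.87, 10.31 and 10.51 at 1 week (-0.37 ± 0.16, limma adjusted p = 0.239) and Il10 was 9.32, 8.08 and 9.94 at day 28, against 10.01, 9.56 and 8.74 at 1 week (-0.33 ± 0.43, limma adjusted p = 0.726). The immediate early gene Fos, which rises when tissue is dissociated, was 13.64, 13.90 and 13.54 at day 28, against 13.17, 13.63 and 13.13 at 1 week (0.38 ± 0.21, limma adjusted p = 0.343). The mast cell protease Cpa3 was 11.56, 11.77 and 11.30 at day 28, against 11.27, 10.87 and 10.28 at 1 week, and the neutrophil gene S100a8 was 11.75, 10.66 and 9.91 at day 28, against 11.49, 11.51 and 12.12 at 1 week. Neither was called.

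Set beside the other 2 groups at 1 week, the day 28 arrays had more genes called against Allo/Y than against Tumor. Day 28 was higher than Allo/Y for 2258 of the 11971 genes (18.9%) and lower for 2925 (24.4%), and higher than Tumor for 158 (1.32%) and lower for 96 (0.802%). These comparisons share the day 28 arrays with the main one, so the values below are only set side by side. Klrh1 was 9.10 ± 0.63, 6.16 ± 0.46 and 5.03 ± 0.25 (SD, n = 3 each) in the day 28, Tumor and Allo/Y groups, a difference of 2.94 from Tumor and of 4.07 from Allo/Y (limma adjusted p = 0.00725 and 1.38e-05). Cd3e averaged 13.001 ± 0.42, 11.24 ± 0.65 and 8.98 ± 0.12 (SD, n = 3 each) in the same order, so it was far above Allo/Y (limma adjusted p = 5.65e-05) and missed the threshold against Tumor (limma adjusted p = 0.0532). Isg15 averaged 11.08 ± 0.21, 12.09 ± 0.27 and 9.71 ± 0.18 (SD, n = 3 each), lower than in Tumor and higher than in Allo/Y (limma adjusted p = 0.0484 and 0.000728). Krt14 averaged 11.48 ± 0.29, 8.13 ± 1.17 and 11.45 ± 0.75 (SD, n = 3 each), and Cxcl9 13.59 ± 0.59, 14.03 ± 0.67 and 9.34 ± 0.14 (SD, n = 3 each). For Krt14 day 28 was above Tumor and differed from Allo/Y by 0.03 (limma adjusted p = 0.041 and 0.974). For Cxcl9 it was above Allo/Y and differed from Tumor by -0.44 (limma adjusted p = 3.11e-05 and 0.553). Scgb2b27 averaged 5.33 ± 0.51, 8.90 ± 1.76 and 11.57 ± 0.27 (SD, n = 3 each), the lowest in the day 28 group. Ngp differed from Tumor and Allo/Y by -0.14 and -0.04, so that the higher value was that of the combined transfer at 1 week.

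**Figure D5:**
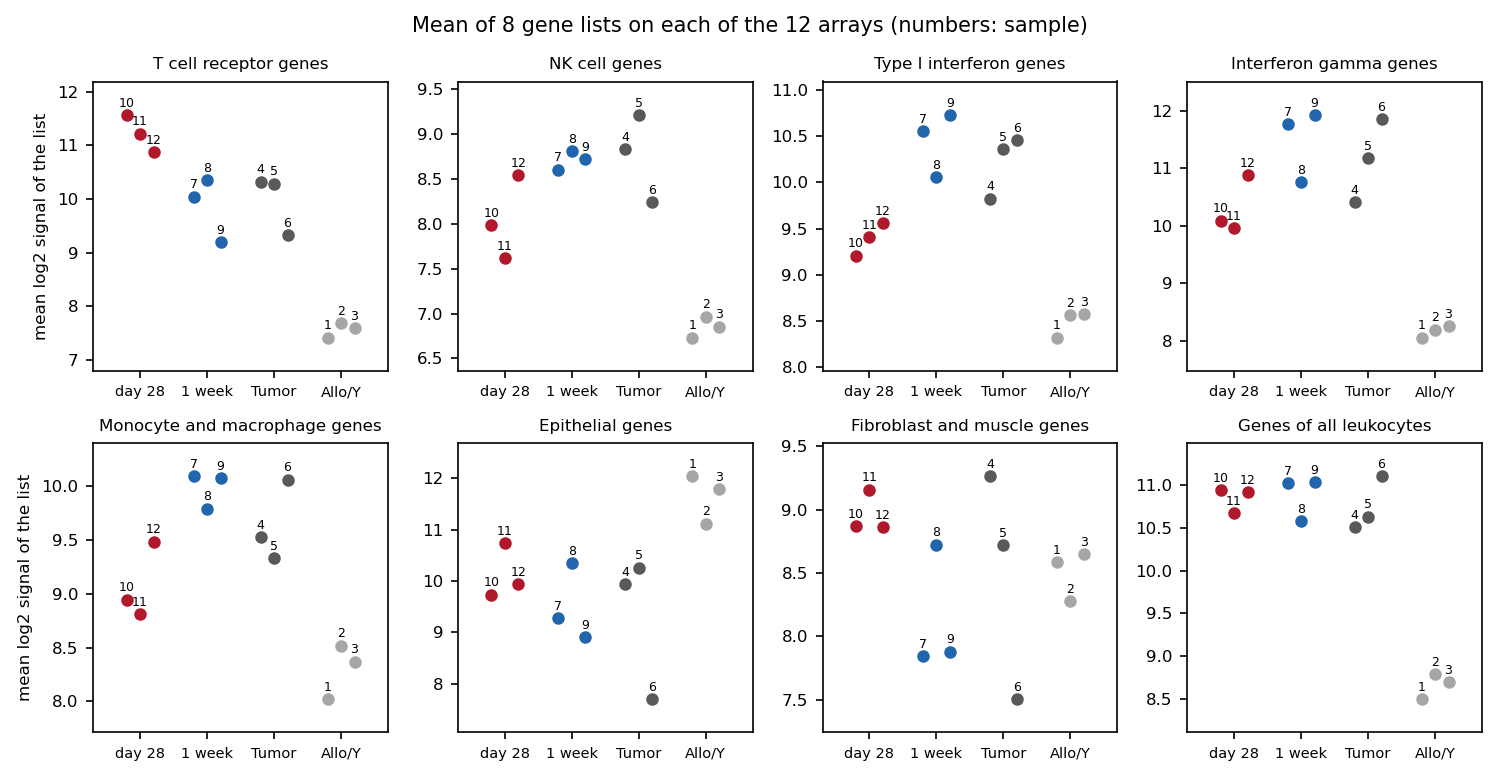
Each point is the mean log2 normalized signal of 1 gene list (y axis) on 1 of the 12 arrays, by group (x axis; day 28 and 1 week are the combined transfer). T cell genes are highest on the 3 day 28 arrays, at 10.88 to 11.57, type I interferon genes are at 9.21 to 9.56 there, and sample 8 lies apart from samples 7 and 9 in the epithelial and fibroblast lists.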

How the data were processed

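CD45+ cells from the prostates of 12 TRAMP mice in 4 groups of 3 were profiled, and 6 arrays enter the main comparison. RNA was extracted with Trizol and biotinylated cRNA was labelled with Streptavidin-Cy3, per the labels. The authors deposited a table of bead signal intensity per probe with a detection p-value for each array, not normalized, per the file headers, and a second table of values normalized by them, whose intensity scale reached the same upper value on every array. GenomeStudio is named in the submitters' processing notes, and its settings are not given in the sources used here. In the deposited normalized table the log scale, offset and method are not stated, and it was used only as an alternative.

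Intensities were background corrected with limma 3.58.1 in R 4.3.3 (neqc, with the negative controls estimated through the detection p-values, offset 16), quantile normalized and log2 transformed. A probe was kept if 3 or more of 12 arrays had a detection p under 0.05. Probes were named from the platform annotation updated through RefSeq, and for genes with more than 1 kept probe (4832 of 11971) the probe with the highest mean was used. A linear model used all 12 arrays and estimated a mean for each group (lmFit and eBayes, two-sided, 8 residual degrees of freedom), with Benjamini-Hochberg adjustment. The number of arrays limits the precision, and 3 against 3 cannot go below an exact two-sided p of 0.1. The labels say that 3 mice per group were used, so replicates are separate mice. Where a probe was not above background in a whole group, only a bound on the fold was given.

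The genes named are, of those called and without overlap, the 15 that rose most and the 15 that fell most, up to 4 called members of each list, and a fixed list of 40 genes, of which 34 were measured. The members and the 41 lists were chosen with earlier results of these data known. Lists were described by counts and medians with no test of the list. Promoter windows came from RefSeq (GRCm38.p6). The procedure was tested on simulated data.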

Additional observations from a re-analysis of the deposited data

How the results depend on the processing

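The counts of 203 genes higher and 42 lower at day 28 varied with the settings. No background correction, normexp with an offset of 50 and the authors' normalized table each gave 250 higher and 64 lower. Scaling to the 75th percentile gave 127 and 20, testing every probe gave 507 and 103, and array weights gave 1390 and 1477, with a convergence warning. A fit on only the 6 arrays compared gave 5 and 2, and a minimum fold of 1.5 gave 4 and 0 (limma treat). The epithelial mean as a covariate gave 399 and 168, and an equal mean of leukocyte genes gave 14 and 9. Leaving out 1 array gave 5 to 315 higher and 0 to 157 lower, the lowest without sample 10 and the highest without sample 8. The share of higher genes among all calls was 82.9% with all arrays, 48.5% with array weights, 64.6% without sample 12, 66.7% without sample 8, 70.4% with the epithelial covariate, 60.9% with equal leukocyte means and 71.4% with only the 6 arrays. No named gene that was called in either setting changed sign. With 4 settings the counts stayed within 1.5 times: no detection filter (174 and 47), detection p under 0.01 (216 and 52), detection on at least 3 of the 6 arrays (225 and 53) and the mean of the kept probes (241 and 56), as with trend and robust variances (205 and 53). No paired analysis was possible because the groups share no replicate numbers. No chip or preparation batch is given in the labels, so a batch could not be put in the fit. Dim signals limit the genes near background, where folds are bounds.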
